A study of Rattus norvegicus with 16 samples.

Results

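Dorsal root ganglia (DRG) of rats injured at a young age were compared with those of sham-operated rats of the same age. The study asked how the ganglia of young rats, which at this age do not show the lasting pain behaviour of adults, react to a nerve injury. The comparison used 5 of the 16 arrays of the series, chosen by their labelled group, namely 2 arrays of young spared nerve injury (SNI) and 3 arrays of young sham surgery. In SNI the common peroneal and tibial branches of the sciatic nerve were ligated and cut and the sural branch was spared, whereas in sham surgery the nerves were exposed and left uncut. All animals were Sprague-Dawley rats with no stated genetic change, operated under halothane. The young rats were 10 days old at surgery and 17 days old when the L4 and L5 DRG on the operated side were collected 7 days later. Each young array held RNA pooled from 8 DRG of 4 rats, so that the p-values below measure the spread between pools and not between rats. The sex of the pups is not labelled. The other arrays were used to estimate the spread or as a reference. They were 2 young contralateral arrays, from the uninjured side of young SNI rats, and 3 arrays each of adult SNI, adult sham and adult contralateral DRG, from 2-month-old males in pools of 3 rats. Further, 1 young injured and 1 young contralateral array had been removed by the authors as outliers, which left 16 of 18. Values are log2 GC-RMA intensities, with array medians of 5.28 to 5.39 in the 5 arrays, and the number of arrays limits the precision. The probe sets of the array are called Affy_IDs, and 31042 of them remained without the control probes.

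The DRG holds the cell bodies of sensory neurons, each wrapped in satellite glia, together with Schwann cells, resident macrophages, blood vessels and connective tissue. Cutting the peripheral axon is known in adult animals to switch on a regeneration programme in the neuron. Transcription factors such as Atf3, Jun and Sox11, neuropeptides such as galanin, neuropeptide Y and VIP, and growth-associated proteins such as Sprr1a and Gap43 belong to it. Macrophages gather around injured neurons and satellite glia react. In bulk tissue, fewer cells of a type and less RNA per cell cannot be told apart.

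Both young SNI arrays stood apart from the others, each in a different way. In SNI replicate 2, transcripts of the central nervous system were at levels seen on no other array. Mobp, a protein of central myelin, was at 14.13 there and at 2.74 in SNI replicate 1 and 2.68 to 2.86 in young sham. Aqp4, the water channel of astrocytes, was at 13.33 in SNI replicate 2, 4.96 in SNI replicate 1, and 2.75, 4.33 and 2.85 in young sham. This Affy_ID was also raised in young contralateral DRG, at 7.77 and 6.50. A second Affy_ID of Aqp4 was at 11.22 in SNI replicate 2 and at 2.34 to 2.71 on the other 15 arrays. The mean of 12 oligodendrocyte genes was 9.23 in SNI replicate 2 and 4.23 to 4.65 on the other 15 arrays, and that of 11 astrocyte genes was 8.77 against 3.11 to 3.90. In SNI replicate 1, the mean of 22 bone marrow genes was 6.65 against 3.69 to 4.81 on the other 15 arrays, and that of 23 bone and cartilage genes was 6.93 against 4.15 to 5.09. Sensory neuron genes were present on all 5 arrays, with means of 23 nociceptor genes of 7.86 to 9.45. The pools also differed in a marker of sex. Xist, the RNA of the inactive X chromosome in females, was at 11.84 and 12.05 in SNI and at 11.87, 2.36 and 9.77 in sham, so that sham replicate 2 alone was without it among the 5 arrays. The part of these differences between arrays in the results below was not tested, except where values without an array are given.

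The injury genes did not follow the surgery labels among the young arrays. Of 40 genes of the neuronal injury programme, all measured, 0 passed the limma test between young SNI and young sham in either direction, at an adjusted p under 0.05. Over all Affy_IDs 5 (0.0161%) passed as higher and 0 (0%) as lower. None of the 40 had both SNI arrays above all 3 sham arrays (2.12% of all Affy_IDs did), and 1 had both below (4.36% of all did). The median difference of the list was -0.21, beside 0.01 over all Affy_IDs, and it turned to 0.37 without SNI replicate 1 and to 0.16 without sham replicate 2. The mean over the 40 genes was 7.05 and 8.24 in SNI, 7.84, 8.60 and 6.88 in sham, and 7.56 and 6.11 in young contralateral DRG. Sham replicate 2 was the highest and contralateral replicate 2 the lowest of the 7 young arrays, and the 2 SNI arrays lay within the range of sham. Sham replicate 2 was the highest of the young arrays for 20 of the 40 genes, against 4935 of 31042 Affy_IDs. Contralateral replicate 2 was the lowest for 20 of the 40, against 1988 of 31042. In the adult arrays the same list stood at 8.78 to 9.09 in SNI and at 6.05 to 6.49 in the 6 control arrays, and 13 of the 40 genes passed as higher in adult SNI than in adult sham and 0 as lower (0.445% and 0.0354% of all Affy_IDs).

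**Figure D1:**
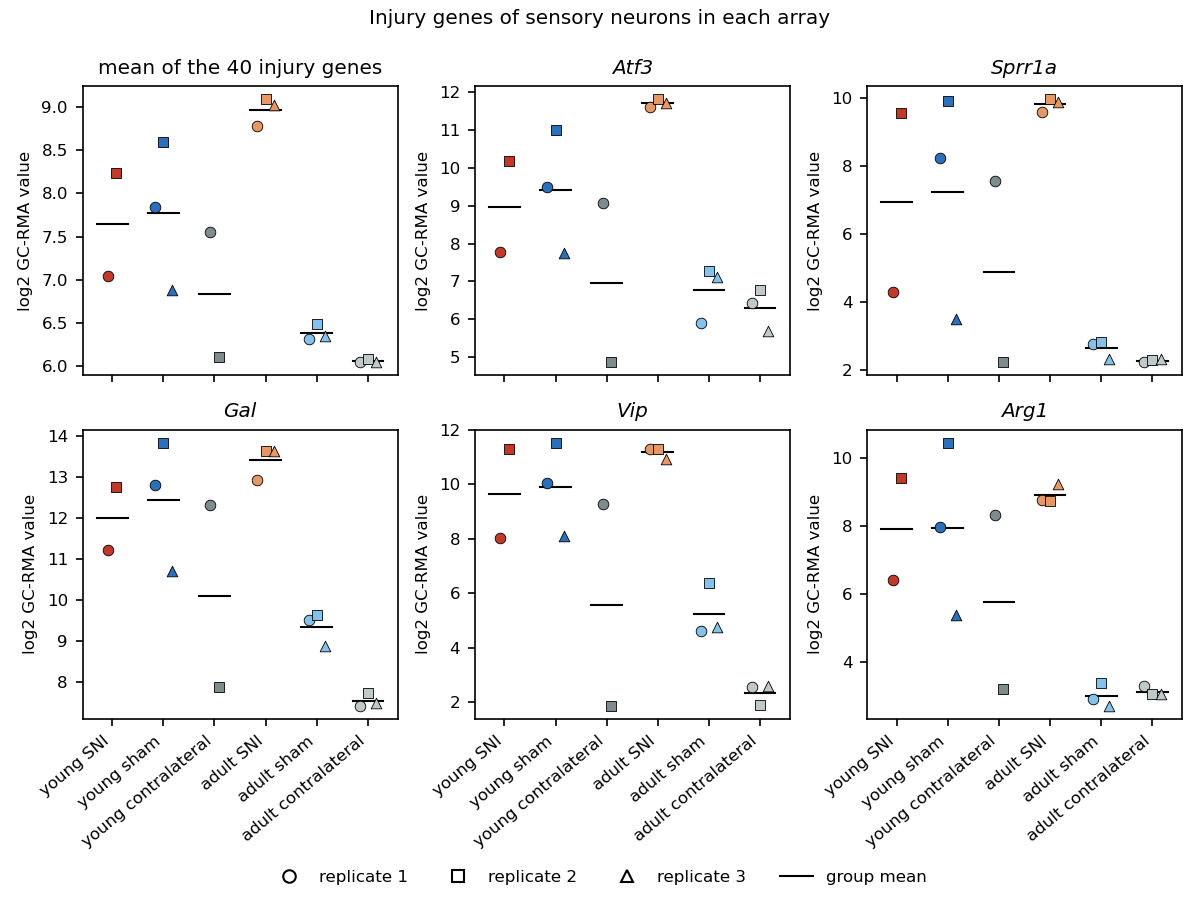
Log2 GC-RMA values of the 40 injury genes (mean) and of 5 of them in each of the 16 arrays, by group on the horizontal axis, with a symbol for each replicate and a line at each group mean. The young SNI points lie among the young sham points (7.05 and 8.24 against 6.88 to 8.60 for the mean of the list), while the adult SNI points lie above all adult control points.

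Single genes of the programme were spread in both groups, like the list. Atf3, a stress-induced transcription factor and a common marker of axotomised neurons, was at 7.77 and 10.17 in young SNI and at 9.49, 11.00 and 7.75 in young sham, a difference of -0.44 (SE 1.18; limma adjusted p = 0.988). Young contralateral arrays gave 9.06 and 4.87, adult SNI arrays 11.60 to 11.81 and adult sham arrays 5.91 to 7.27. Sham replicate 2 thus carried more Atf3 signal than either young SNI array. Sprr1a, a protein that promotes axon outgrowth, was at 4.30 and 9.57 in young SNI and at 8.24, 9.92 and 3.50 in young sham (difference -0.28, SE 1.94; limma adjusted p = 0.991). Its adult values were 9.58 to 9.97 in SNI and 2.31 to 2.80 in sham, so both young groups spanned most of the adult range.

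The neuropeptides were spread in the same manner. Galanin (Gal) was at 11.22 and 12.77 in young SNI and at 12.81, 13.84 and 10.71 in young sham. Npy was at 10.40 and 12.94 against 12.08, 13.56 and 10.06, and Vip at 8.02 and 11.29 against 10.03, 11.52 and 8.09. For each of the 3 genes the array labelled sham replicate 2 was the highest and the groups overlapped. Nts, the precursor of neurotensin, was at 2.55 and 7.30 in young SNI and at 3.02, 6.22 and 2.46 in young sham, above 4 only in 1 array of each group. Vgf, a secreted protein that neurons process to peptides, was at 9.19 and 10.35 against 10.06, 10.08 and 9.25. Among the remaining members, Sox11, a developmental transcription factor, was at 3.26 and 3.42 in SNI and at 3.92, 5.67 and 2.96 in sham. Arg1, an arginase of regenerating neurons and of macrophages, was at 6.39 and 9.39 against 7.97, 10.44 and 5.36. Adcyap1, the precursor of the neuropeptide PACAP, was the 1 member with both SNI arrays below sham, at 9.17 and 9.32 against 9.90, 9.78 and 9.42, with a gap of 0.10 between the nearest arrays and a difference of -0.46 (SE 0.20; limma adjusted p = 0.837).

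Promoters of 3 members are shown for the motifs they hold. Jun is a subunit of AP-1, which is known to bind the motif TGACTCA, and CREB, a factor activated by cAMP, is known to bind TGACGTCA, the cAMP response element (CRE). The 250 bases before the gene start are given from RefSeq on the rat build GRCr8, read along the gene's own strand, which is the minus strand for all 3. Both motifs were searched on both strands. Capitals mark TGAGTCA, the reverse complement of TGACTCA, in Sprr1a and Nts, and TGACGTCA in Vgf. Sprr1a lies at chr2:180752626-180752875, with the motif at -147 and at -117 from the gene start. Nts lies at chr7:39460889-39461138, with the motif at -212, and Vgf at chr12:25277021-25277270, with the CRE at -90.
Sprr1a: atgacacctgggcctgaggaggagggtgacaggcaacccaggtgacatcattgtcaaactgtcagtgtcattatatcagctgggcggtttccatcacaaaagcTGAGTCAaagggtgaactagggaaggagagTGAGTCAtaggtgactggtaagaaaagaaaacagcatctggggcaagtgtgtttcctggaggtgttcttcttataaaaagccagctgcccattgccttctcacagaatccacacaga
Nts: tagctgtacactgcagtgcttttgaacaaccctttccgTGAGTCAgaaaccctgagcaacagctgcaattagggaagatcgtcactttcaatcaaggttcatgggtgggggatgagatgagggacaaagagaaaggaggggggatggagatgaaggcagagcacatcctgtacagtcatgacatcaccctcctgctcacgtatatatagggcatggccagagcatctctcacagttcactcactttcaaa
Vgf: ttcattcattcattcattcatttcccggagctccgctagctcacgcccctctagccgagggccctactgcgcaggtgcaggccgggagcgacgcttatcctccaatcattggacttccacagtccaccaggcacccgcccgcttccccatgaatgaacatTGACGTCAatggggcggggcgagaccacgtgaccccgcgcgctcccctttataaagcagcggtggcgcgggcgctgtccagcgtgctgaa
Of the 40 genes, 28 matched a promoter in the table. TGACTCA was in 3 of the 28 (Nts, Plaur, Sprr1a) and in 4.05% of 33469 promoters, and TGACGTCA was in 4 of the 28 (Crem, Il6, Ucn, Vgf) and in 1.59%. A match of letters is a description and not a bound site.

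Over all genes, 5 Affy_IDs were higher in young SNI than in young sham and 0 were lower (limma, adjusted p under 0.05), while 1836 (5.91%) had an unadjusted p under 0.05. In each of the 5 both SNI arrays stood above the 14 other arrays. Col11a2, a chain of the cartilage collagen XI, was at 5.01 and 5.53 in SNI and at 2.83, 3.09 and 2.61 in sham, a difference of 2.43 (SE 0.18; limma adjusted p = 0.000656). The 14 arrays other than young SNI lay at 2.37 to 3.14. The cartilage genes Col2a1, Comp and Col9a1 did not have this pattern. Col2a1, the main collagen of cartilage, was at 12.65 and 10.99 in SNI against 12.61, 12.53 and 12.61 in sham, Comp at 6.66 and 4.83 against 6.20, 6.91 and 5.79, and Col9a1 at 7.57 and 7.83 against 8.42, 7.68 and 7.61. Among all 23 bone and cartilage genes, SNI replicate 1 was above all sham arrays for 16 and below for 1. SNI replicate 2 was above for 3 and below for 10. Over all Affy_IDs these shares were 10.3% and 10.3% in SNI replicate 1, and 15.7% and 29.5% in SNI replicate 2. The part of bone and cartilage in the Col11a2 values was not tested.

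Ttk, a kinase of the spindle checkpoint in dividing cells, was at 3.72 and 3.66 in SNI and at 2.59, 2.51 and 2.70 in sham, a difference of 1.09 (SE 0.08; limma adjusted p = 0.000656). Its second Affy_ID was at 2.67 and 2.70 against 2.64, 2.64 and 2.75 and did not pass. Tcf7l2, a transcription factor of the Wnt pathway, was at 3.44 in both SNI arrays and at 2.69, 2.73 and 2.81 in sham (difference 0.70, SE 0.06; limma adjusted p = 0.00118). Of its 4 other Affy_IDs none passed, and the brightest was at 7.20 and 8.85 against 7.42, 7.54 and 7.25. Bcl11a, a zinc finger repressor expressed in neurons and in blood cell precursors, was at 4.17 and 4.34 in SNI and at 2.70, 2.80 and 3.36 in sham (difference 1.30, SE 0.16; limma adjusted p = 0.0357). Its second Affy_ID was at 4.70 and 6.07 against 4.63, 4.66 and 4.71 and did not pass. Gpt, the alanine aminotransferase, was at 6.04 and 6.08 in SNI and at 5.57, 5.50 and 5.59 in sham (difference 0.51, SE 0.06; limma adjusted p = 0.0357). The 5 genes stood above all young sham arrays by a gap of 0.45 to 1.92.

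Ttk and Tcf7l2 stayed under a log2 value of 4 on all 16 arrays, at most 3.72 and 3.44. With the 5 arrays alone, or with the 7 young arrays, 0 Affy_IDs passed (407 and 546 had an unadjusted limma p under 0.05), with the same differences and a limma adjusted p of 0.984 and 0.979 for each of the 5 genes. When each of the 16 arrays was left out in turn, Col11a2, Ttk and Tcf7l2 passed in 16 of 16 fits, Gpt in 5 and Bcl11a in 4. Leaving out any of the 9 adult arrays, or SNI replicate 2, sham replicate 1 or sham replicate 2, ended the call of Bcl11a. Gpt lost its call without SNI replicate 2, without each sham array and without 7 of the 9 adult arrays.

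**Figure D2:**
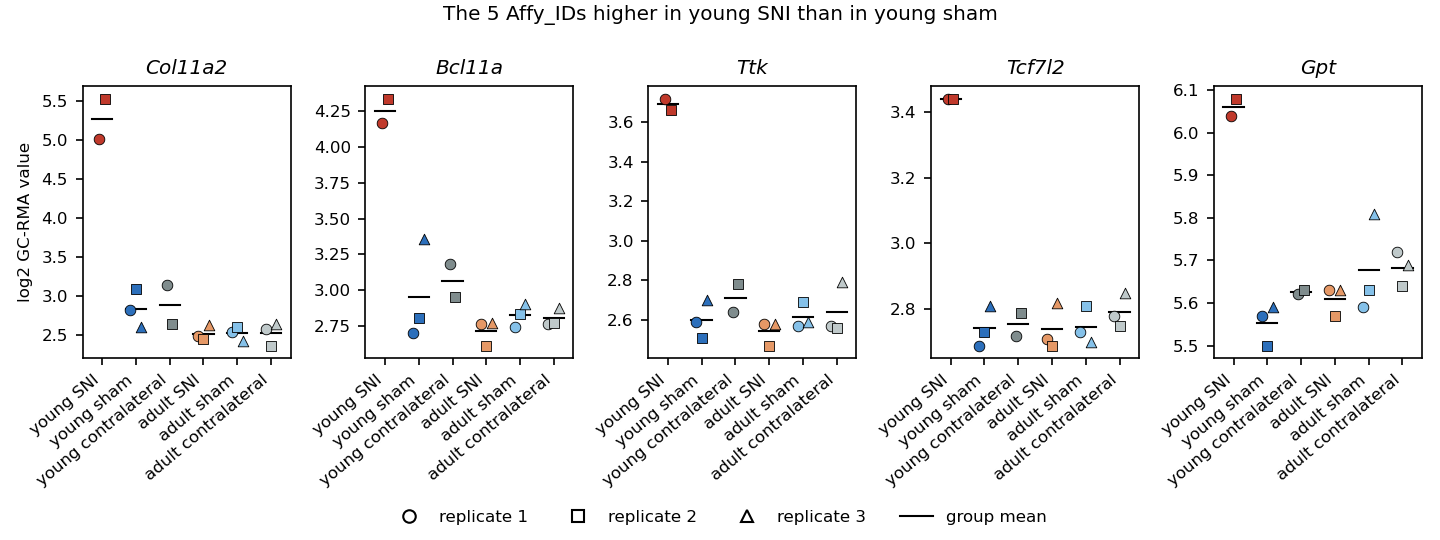
Log2 GC-RMA values of the 5 Affy_IDs that passed as higher in young SNI, in each of the 16 arrays by group, with a symbol for each replicate and a line at each group mean; each panel has its own vertical scale. Both young SNI arrays lie above the young sham arrays, with gaps from 0.45 (Gpt) to 1.92 (Col11a2).

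Whether or not they passed the test, 659 Affy_IDs (2.12%) had both SNI arrays above all 3 sham arrays and 1353 (4.36%) had both below. The same shares serve as the reference for the counts of list members that follow. They include Affy_IDs at low values. Of the 18540 Affy_IDs reaching 4 on the log2 scale on 2 or more arrays, 535 were above and 1231 below, a larger share in each direction. Of those named by 1 gene, the widest gaps above sham after Col11a2 were at Stac3 (1.72) and Pygm (1.57), both genes of skeletal muscle, and at Zfhx4 (1.19). Stac3, which couples muscle membrane voltage to calcium release, was at 4.79 and 4.60 in SNI and at 2.73, 2.88 and 2.79 in sham, but at 8.10 and 4.30 in young contralateral DRG. Pygm, the glycogen phosphorylase of muscle, was at 7.43 and 7.66 against 3.93, 5.86 and 2.96, with 9.72 and 7.86 in contralateral DRG. The mean of 18 muscle genes moved between the arrays as well, at 11.16 and 7.73 in SNI, 8.14, 10.14 and 7.71 in sham and 13.10 and 10.75 in contralateral DRG, and its part in these values was not tested. Zfhx4, a zinc finger homeobox factor, was at 6.69 and 7.05 against 5.50, 5.30 and 4.26, and its second Affy_ID at 4.58 and 4.50 against 3.41, 3.84 and 3.45. Srgn, the proteoglycan of blood cell granules, was at 11.15 and 10.30 against 9.40, 9.44 and 9.53. Neither Zfhx4 nor Srgn passed the test (limma adjusted p = 0.837 for each). Slc40a1, the iron exporter ferroportin, was at 5.62 and 5.61 against 4.93, 4.79 and 4.82, without passing.

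The widest gap below sham was at Nr4a2, an orphan nuclear receptor induced by activity and stress. It was at 3.69 and 3.33 in SNI and at 5.30, 5.14 and 4.54 in sham, a difference of -1.48 (SE 0.39; limma adjusted p = 0.837), and its second Affy_ID was at 5.64 and 6.39 against 6.48, 7.16 and 6.67. By the first Affy_ID, young contralateral DRG were at 4.59 and 3.28 and the adult arrays at 3.09 to 4.40. Both SNI arrays thus lay within the range of the groups other than young sham. The related receptor Nr4a1 was at 9.66 and 9.13 against 10.23, 10.39 and 10.03 (difference -0.82, SE 0.25; limma adjusted p = 0.837). Hspa1a, an inducible heat shock protein, was at 7.24 and 6.33 against 7.61, 7.55 and 7.30. Egr1, another activity-induced factor, lay the other way, at 8.56 and 9.31 against 8.46, 8.16 and 7.67, while Fos overlapped, at 7.22 and 9.72 against 7.27, 8.13 and 7.38. Of 21 immediate early and heat shock genes measured, 1 was above and 3 were below sham in both SNI arrays (2.12% and 4.36% of all Affy_IDs). None of the 21 passed, and the median difference was 0.01. Among the next widest were Aass, an enzyme of lysine breakdown, at 2.84 and 2.01 against 3.76, 3.63 and 3.71, and Wnt16, a secreted Wnt ligand, at 5.82 and 5.23 against 6.44, 6.73 and 6.43. The limma adjusted p of both was 0.837.

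The sensory neuron genes differed between the 2 SNI arrays. Of 23 nociceptor genes measured, 0 passed, 3 had both SNI arrays below sham and 0 had both above, and the median difference was -0.72. SNI replicate 1 had a median difference from the sham mean of 0.01 and SNI replicate 2 of -1.43, and 19 of the 23 genes were below all sham arrays in SNI replicate 2 against 4 in SNI replicate 1. Over all Affy_IDs 29.5% and 10.3% were below sham in these arrays. Trpv1, the capsaicin receptor, was at 10.29 and 7.87 in SNI and at 10.50, 10.17 and 10.37 in sham. Scn10a, the sodium channel Nav1.8, was at 11.13 and 8.06 against 11.10, 10.76 and 10.81, and Calca, the precursor of CGRP, at 14.86 and 13.08 against 15.07, 14.73 and 14.68. In each of these genes SNI replicate 1 lay within or above the sham range and SNI replicate 2 below it. The 3 genes below sham in both SNI arrays did so by gaps of 0.02 to 0.15. They were P2rx3, an ATP-gated channel (11.77 and 10.23 against 11.79, 11.93 and 11.81), the neurotrophic receptor Gfra3 (8.42 and 7.40 against 8.83, 9.10 and 8.57) and Kcnip4, a potassium channel subunit (9.77 and 9.15 against 9.91, 9.81 and 9.82). Without SNI replicate 2 the median of the list was 0.01.

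Genes of large sensory neurons, 19 measured, had a median difference of -0.22, with 0.01 in SNI replicate 1 and -0.44 in SNI replicate 2. Of 53 ion channel genes, 2 were above sham in both SNI arrays and 4 were below (2.12% and 4.36% of all Affy_IDs), and 0 passed. Asic2, an acid-sensing channel, was above at 8.30 and 8.27 against 8.01, 7.87 and 8.20, and Kcnj11, a potassium channel gated by ATP, at 5.75 and 6.17 against 5.56, 5.56 and 5.53. Cacna2d1, the target of gabapentin, was at 10.83 and 11.29 against 11.35, 11.92 and 10.68 and overlapped.

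Satellite glia and Schwann cells gave no call either. Of 14 satellite glia genes, 2 were above sham in both SNI arrays. Gja1, the gap junction protein connexin 43, was at 11.74 and 13.33 against 11.03, 11.27 and 10.85 (difference 1.49, SE 0.39; limma adjusted p = 0.837), and Fabp7, a fatty acid binding protein, at 11.73 and 12.73 against 11.64, 10.98 and 11.31. Gfap, which reactive satellite glia raise after adult injury, was at 4.26 and 12.43 in SNI and at 6.17, 6.26 and 3.77 in sham. Both Gja1 and Gfap are also made by astrocytes, whose list was high in SNI replicate 2, and 10 of the 14 genes were at their highest of 16 arrays there, against 3059 of 31042 Affy_IDs. The part of these cells in the satellite glia values was not tested. The median difference of the list was -0.06 in SNI replicate 1. Of 14 genes of myelinating Schwann cells, Cldn19 of the myelin junctions was the 1 gene below sham in both arrays (10.66 and 10.00 against 11.01, 10.98 and 10.83), and the medians were -0.18 and -0.20 in the 2 SNI arrays. Mag, a myelin protein of both the peripheral and the central nervous system, was at 9.30 and 12.22 against 9.94, 9.51 and 9.57.

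Of 31 macrophage genes, 0 passed, 2 were above sham in both SNI arrays and 1 was below (2.12% and 4.36% of all Affy_IDs). Ptprc, the leukocyte antigen CD45, was at 6.85 and 7.17 in SNI and at 6.52, 6.56 and 5.97 in sham, and Tyrobp, a signalling adaptor of myeloid cells, at 4.80 and 5.31 against 4.46, 4.48 and 4.04. P2ry14, a receptor for UDP-glucose, was below by a gap of 0.01. Aif1 (Iba1), a common macrophage marker, was at 7.96 and 9.37 against 8.38, 8.36 and 7.10, and the complement gene C1qa at 7.71 and 9.54 against 8.31, 8.50 and 7.23. In both, SNI replicate 2 lay above sham and SNI replicate 1 within it. The median difference of the macrophage list was -0.09 in SNI replicate 1 and 0.34 in SNI replicate 2. Transcripts of the central nervous system were high in SNI replicate 2 as well, and their part in the macrophage values was not tested. The adult list had 7 of 31 genes passing as higher in SNI (0.445% of all Affy_IDs). None of 8 MHC class II genes lay outside sham in both arrays, and Cd74, the invariant chain, was at 11.46 and 11.79 against 12.19, 12.16 and 11.10. Of 18 complement genes none lay outside sham in both arrays. Of 52 chemokine and cytokine genes, 26 were under a log2 value of 3 in all 5 arrays, and Ccl2, a macrophage attractant, was at 9.33 and 8.37 against 9.53, 9.22 and 9.22. Markers of T cells (13 of 17) and of B cells (5 of 5) were under 3 in all 5 arrays.

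Of 41 cell cycle genes, Ttk passed and Aurkb and Cenpf, both of mitosis, were above sham in both SNI arrays without passing (limma adjusted p = 0.837 for each). Aurkb was at 3.73 and 3.46 against 3.17, 3.14 and 3.25, and Cenpf at 6.27 and 6.15 against 5.83, 5.88 and 5.77. SNI replicate 1 was above all sham arrays for 22 of the 41 genes and SNI replicate 2 for 5, where 10.3% and 15.7% of all Affy_IDs were. Mki67, the proliferation antigen, was at 8.65 and 6.33 against 6.41, 7.90 and 6.85. The bone marrow list, whose cells divide, was high in SNI replicate 1 as well, and its part was not tested. Among 28 apoptosis genes 0 were above sham in both arrays and 3 were below (2.12% and 4.36% of all Affy_IDs). Casp9, the initiator caspase of the mitochondrial pathway, was at 7.32 and 6.58 against 7.84, 7.51 and 7.54 (difference -0.68, SE 0.18; limma adjusted p = 0.837), and the death agonist Bid at 9.06 and 7.99 against 9.42, 9.14 and 9.27. The third was Diablo, at 11.41 and 10.09 against 11.79, 11.43 and 11.44. Most of these falls lay in SNI replicate 2, at -1.05, -1.29 and -1.46 from the sham mean for Casp9, Bid and Diablo. In SNI replicate 1 they were -0.31, -0.22 and -0.14. Of 58 collagen and matrix genes 1 passed, Col11a2, and 2 were below sham in both arrays, Col5a3 and Fbn2.

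**Figure D3:**
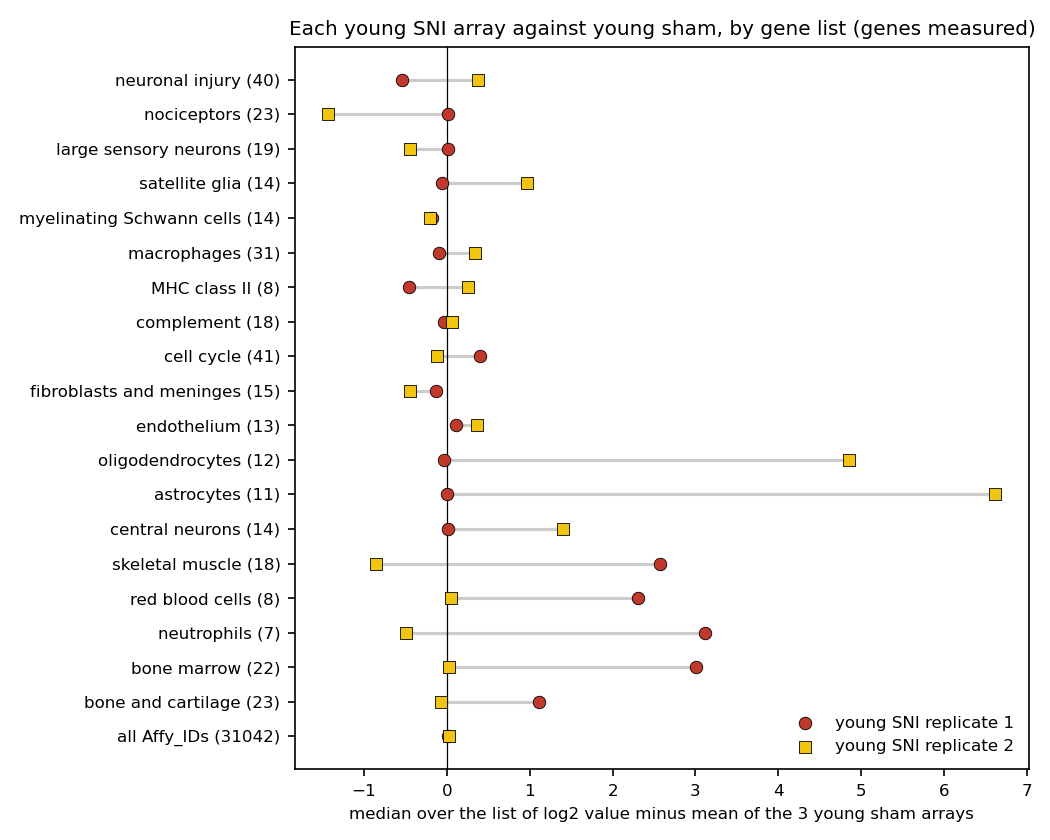
For each gene list (number of genes measured in brackets), the median over its genes of the log2 value minus the mean of the 3 young sham arrays, shown apart for young SNI replicate 1 (circles) and replicate 2 (squares). The neuronal injury list lies at -0.54 and 0.37, astrocytes at 0.00 and 6.62, and bone marrow at 3.01 and 0.03.

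Taken alone, each SNI array gave its own set of calls. The fit without SNI replicate 2 called 51 Affy_IDs higher (0.164%) and 0 lower, and the fit without SNI replicate 1 called 1493 higher (4.81%) and 1912 lower (6.16%). A single array has no spread of its own, and it was taken to vary like the other groups. Among the Affy_IDs with 1 symbol that passed in the fit of SNI replicate 1, the largest rises were at genes of bone and marrow. Col10a1, the collagen of growth plate cartilage, was at 9.18 there, at 2.09 in SNI replicate 2 and at 3.77, 3.21 and 3.35 in sham. Dmp1 of osteocytes was at 7.87 against 2.27 to 2.32 in sham, Prg2 of eosinophil granules at 7.54 against 2.27 to 2.36, and Acp5 of osteoclasts at 9.56 against 4.02 to 4.76. Some genes of these tissues lay as far from sham without passing. Mmp13, a collagenase of growth plate cartilage, was at 10.05 in SNI replicate 1 and 2.93 in SNI replicate 2, with sham at 3.35, 3.15 and 2.99. It was also high on some other arrays, at 9.28 and 8.75 in adult sham replicates 1 and 3 and 7.28 in adult contralateral replicate 3. Bglap, the osteoblast protein osteocalcin, was at 11.46 and 2.54, with sham at 6.08, 7.54 and 4.52.

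In the fit of SNI replicate 2 the largest rises that passed, after Mobp and Aqp4, were at Slc12a5, the neuronal chloride exporter KCC2 (11.79 against 1.79 to 1.86 in sham), Olig1, a transcription factor of the oligodendrocyte line (11.60 against 2.03 to 2.13), and Mog, of central myelin (11.58 against 2.29 to 2.41). The largest falls that passed included genes of sensory neurons. Tmem233 was at 3.85 against 9.79, 9.52 and 9.61, the serotonin receptor Htr1d at 2.21 against 7.35, 6.57 and 7.21, and a second Affy_ID of Trpv1 at 4.57 against 8.91 to 9.39. SNI replicate 1 was at 9.78, 7.05 and 9.20 for these 3 genes, within the sham range in each.

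**Figure D4:**
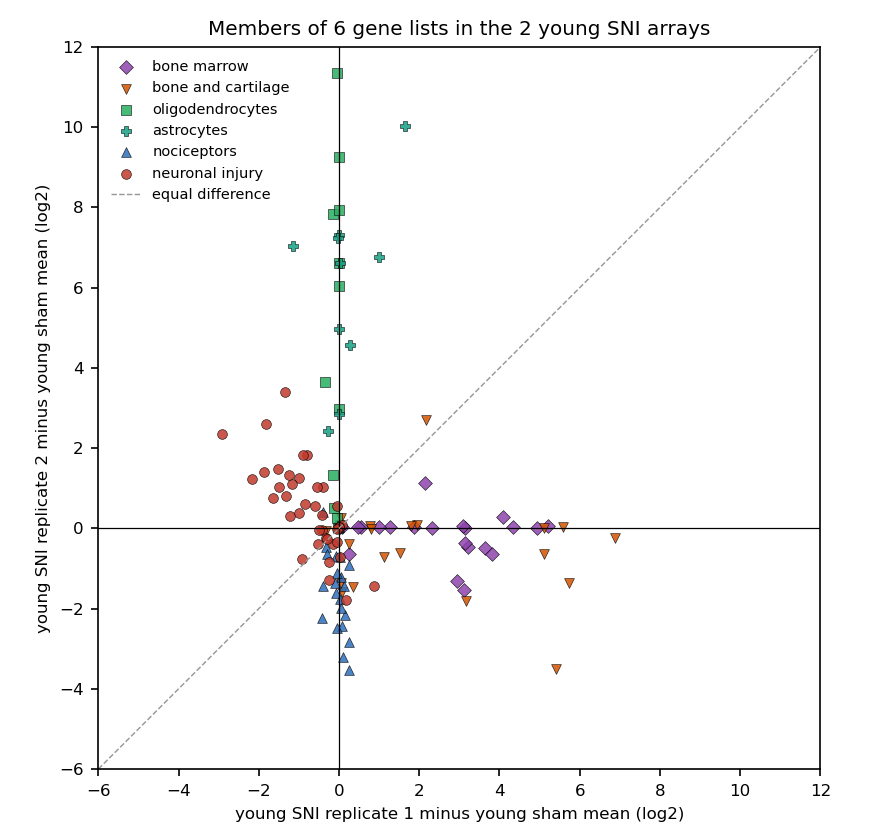
Members of 6 gene lists, each point a gene, by its log2 difference from the young sham mean in SNI replicate 1 (horizontal axis) and in SNI replicate 2 (vertical axis). Bone marrow genes spread along the horizontal axis, and oligodendrocyte and astrocyte genes along the vertical axis. Points near the dashed line of equal difference include genes with little difference from sham in either array, and Col11a2 (2.17 and 2.69).

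The response to SNI was then compared between ages, as the difference of SNI minus sham in adults less that in young rats. It was larger in adults at 19 Affy_IDs (0.0612%) and smaller at 5 (0.0161%), while 1948 (6.28%) had an unadjusted limma p under 0.05. The 5 were those called in young SNI, from the same young arrays. Of the 19, 14 carried the symbol of 1 gene, for 13 genes. Serpina3n, an inhibitor of serine proteases of inflammation, was at 1.85 and 1.87 in young SNI, 1.80, 1.83 and 1.88 in young sham and 8.50, 9.63 and 9.02 in adult SNI, with adult sham at 1.82 to 1.89 (age difference 7.17; limma adjusted p = 1.53e-06). Serpinb2, the plasminogen activator inhibitor PAI-2, was at 2.31 and 2.35 in young SNI, 2.25, 2.29 and 2.37 in young sham and 7.16, 6.90 and 5.52 in adult SNI, with adult sham at 2.29, 2.37 and 2.32 (4.17; limma adjusted p = 0.0103). For both serpins the young SNI and sham arrays lay within the same narrow range. Both stayed under a log2 value of 3 on all arrays other than adult SNI. At such low values an absent transcript and a faint one cannot be told apart, and a small response in young rats could go unseen.

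Hamp, the iron hormone hepcidin, was at 1.76 and 1.77 in young SNI and at 1.74, 2.78 and 1.77 in young sham, against 5.97, 8.13 and 6.58 in adult SNI. The macrophage gene Ms4a6a was at 2.31 and 2.40 in young SNI, at 2.95, 2.47 and 2.36 in young sham and at 5.77, 5.05 and 5.66 in adult SNI, with adult sham at 2.29, 2.37 and 2.33. In these 2 genes, too, both young SNI arrays lay within or below the sham range, and all young SNI and sham values were under a log2 value of 3. Tnfaip6, a hyaluronan-binding protein of inflammation, was at 3.65 and 4.50 in young SNI, 4.33, 4.66 and 4.07 in young sham and 6.15, 6.85 and 6.33 in adult SNI. The neuronal gene Adcyap1 was at 8.90 and 8.50 in young SNI and at 9.13, 9.53 and 8.81 in young sham by its second Affy_ID, with 10.33 to 10.81 in adult SNI. Maoa, which degrades monoamines, was at 10.78 and 10.95 against 11.33, 11.09 and 10.88 in young rats and at 11.97 to 12.07 in adult SNI. The age differences, which take off the adult sham level, were 5.49 for Hamp, 2.71 for Tnfaip6 and 1.50 for Maoa. Those of the 2 Affy_IDs of Adcyap1 were 2.31 and 2.29. Stx1a, a syntaxin of neurotransmitter release, already stood higher in young arrays of either kind (8.29 to 8.93) than in adult sham (7.45 to 7.67). With each of the 16 arrays left out in turn, Serpina3n, Serpinb2, Ms4a6a, Hamp, Pdcl3 and 1 of the 2 Affy_IDs of Adcyap1 passed in 16 of 16 fits, and the other genes in 3 to 11.

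The genes that the study had chosen for its own follow-up from the adult response, 15 measured, gave no call in young SNI and had a median difference of 0.01. A log2 value under 3 in all 5 arrays, where a small response could go unseen, was found for 5 of the 15, against 9415 of 31042 Affy_IDs. SNI replicate 2 was above all sham arrays for 5 of the 15 and below all for 3, and SNI replicate 1 for 1 and 3. Over all Affy_IDs these shares were 15.7% and 29.5% in SNI replicate 2, and 10.3% and 10.3% in SNI replicate 1. The study's qPCR of these genes was not used here. Of the 15, 1 was above sham in both arrays (Map2k6) and 1 below (P2ry14), by gaps of 0.02 and 0.01. Over all Affy_IDs 2.12% were above and 4.36% below. Since these genes were selected on the same arrays, their lack of a call in the young is no independent evidence. In adults 9 of them passed as higher and 1 as lower (0.445% and 0.0354% of all Affy_IDs). The age difference passed for 3, all larger in adults (0.0612% of all Affy_IDs). The selection rested on the adult response in these arrays, so these counts are no independent evidence either. Il6, an inflammatory cytokine, was at 2.37 and 2.39 in young SNI and at 2.35, 2.37 and 2.42 in young sham, with 5.12, 5.67 and 3.87 in adult SNI. Tlr4, a receptor of innate immunity, was at 2.10 and 2.12 against 2.05, 2.06 and 2.14 in young rats. Both genes were under a log2 value of 3 in the young SNI and sham arrays. For Il6 and Tlr4 the age difference did not pass (limma adjusted p = 0.119 and 0.174).

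**Figure D5:**
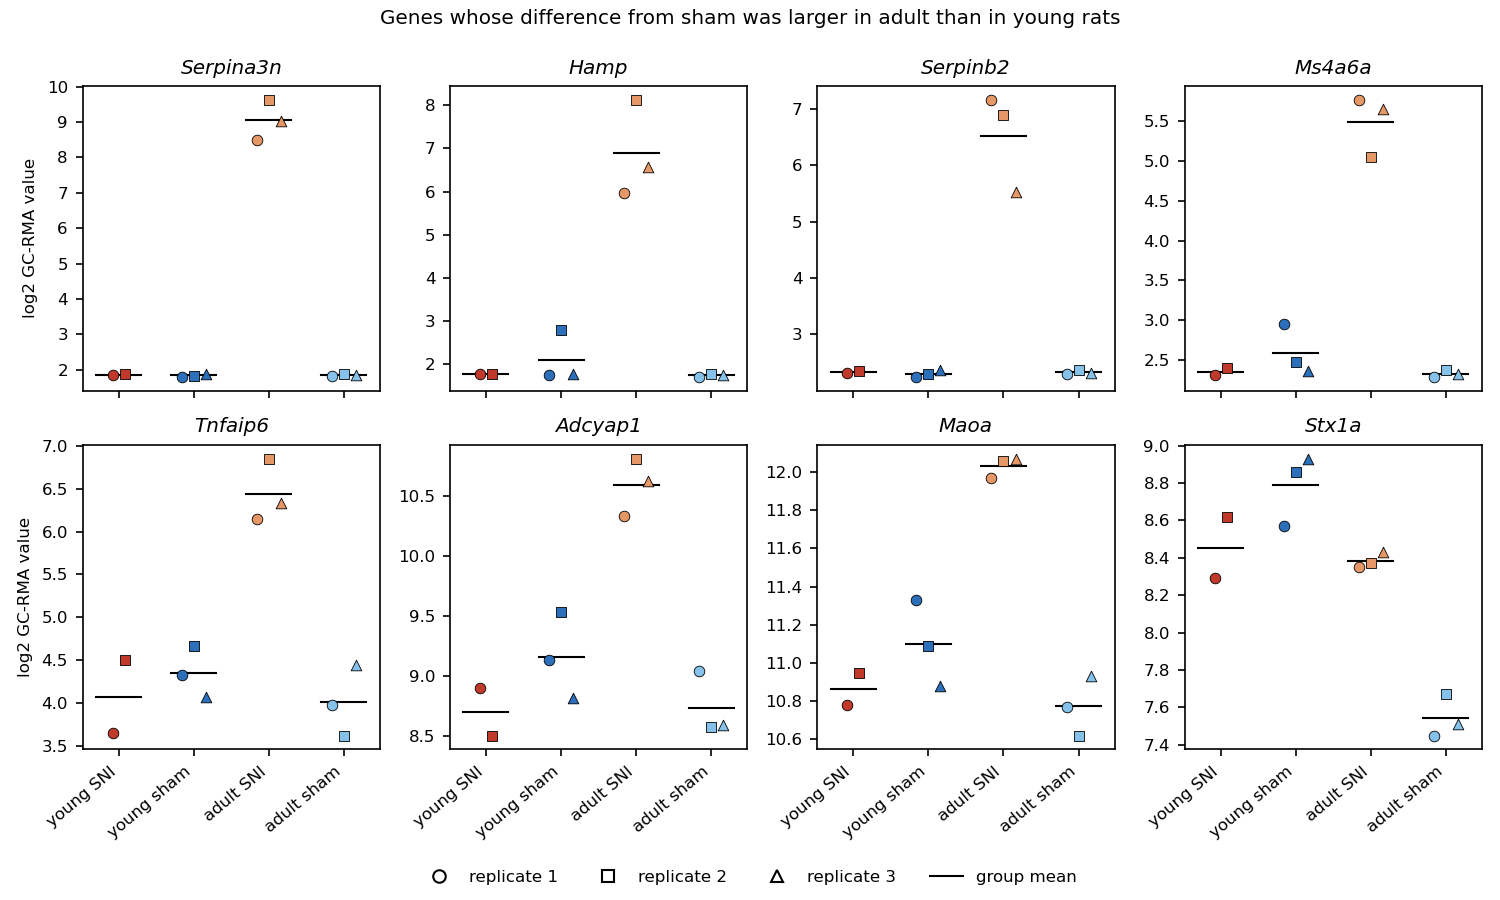
Log2 GC-RMA values of 8 genes whose difference between SNI and sham was larger in adult than in young rats, in the 11 arrays of these 4 groups, with a symbol for each replicate and a line at each group mean; each panel has its own vertical scale. Serpina3n lies at 1.80 to 1.88 in all 5 young arrays and at 8.50 to 9.63 in adult SNI.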

How the data were processed

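RNA of pooled L4 and L5 DRG was hybridised to 16 Affymetrix rat 230 2.0 arrays. The deposited log2 values had been made by the authors with GC-RMA, which corrects the background, normalizes and summarises probes. Their processing notes name GCRMA and limma, without versions. The authors had removed 2 of 18 arrays as outliers. After 57 control probe sets were dropped, 31042 Affy_IDs were tested, of which 20826 carried 1 symbol in the platform annotation, 436 several and 9780 none.

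Groups were taken from the labels. A model of 6 group means was fitted to all 16 arrays with limma 3.58.1 in R 4.3.3 (eBayes, 10 residual and 1.24 prior degrees of freedom), and p-values were adjusted by Benjamini-Hochberg over all Affy_IDs, with a threshold of 0.05. The age difference was a contrast of the same fit. On simulated data for the young comparison over 31042 Affy_IDs, 59 of 100 changes of 1 and 87 of 100 changes of 2 on the log2 scale were recovered, with 8 unchanged Affy_IDs called. Each simulated Affy_ID had 1 spread on all 16 arrays and independent errors. The real young SNI arrays differed more widely than that, so recovery in the real data may be different. Named genes were those called, those with the widest gap between the nearest arrays of groups that do not overlap, and members of 33 gene lists. Where a list gene had several Affy_IDs, the one brightest on average was used. The members and lists were chosen with earlier results of these data known, and 2 further lists (bone and cartilage, bone marrow) were added later. Some genes are not reported here. Promoters came from RefSeq (GRCr8). Tables and plots used Python 3.11.15, numpy 2.4.6, pandas 2.3.3 and matplotlib 3.10.9. Alternatives were array weights, an intensity trend, a robust prior, quantile normalization, a replicate block, fewer arrays and a filter that kept the 18540 Affy_IDs reaching 4 on the log2 scale on 2 or more arrays.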

Additional observations from a re-analysis of the deposited data

Results flagged for a closer look

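The response to SNI (SNI minus sham) differed between adult and young rats in limma's test of that difference, at an adjusted p under 0.05, for 14 named Affy_IDs with a larger response in adults. On the log2 scale the adult response exceeded the young one by 7.17 for Serpina3n, 5.49 for Hamp, 4.17 for Serpinb2 and 3.40 for Ms4a6a. It did so by 2.71 for Tnfaip6, 2.35 for Pdcl3, 2.31 and 2.29 for the 2 Affy_IDs of Adcyap1, and 2.00 for Ypel1. The remaining differences were 1.94 for Pdlim1, 1.50 for Maoa, 1.39 for Clec4a, 1.17 for Stx1a and 0.89 for Tceal9. Young SNI and sham values of Serpina3n, Hamp, Serpinb2 and Ms4a6a were all under a log2 value of 3.

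The same test gave a smaller response in adults for the 5 genes called in young SNI, with differences of -0.57 for Gpt, -0.70 for Tcf7l2, -1.16 for Ttk, -1.41 for Bcl11a and -2.43 for Col11a2.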

How the results depend on the processing

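With limma, the 5 Affy_IDs higher in young SNI became 3 with array weights, 1 after the filter on low values, and 0 with only the 5 arrays or only the 7 young arrays. They numbered 3 to 1493 when arrays were left out in turn (1493 without SNI replicate 1, 51 without SNI replicate 2, 9 without either young contralateral array). Lower Affy_IDs, 0 at first, numbered 0 to 1912 (1912 without SNI replicate 1). The 659 above all sham became 1143 to 10223 with an array left out (10223 without sham replicate 3). The 1353 below became 2540 after quantile normalization and 2192 to 9145 with an array left out. The 19 larger in adults became 10 with array weights, 29 after the filter and 8 to 1198 with an array left out (1198 without SNI replicate 1, 95 without sham replicate 3, 53 without adult SNI replicate 1). The 5 smaller in adults became 2 after the filter, 3 with a robust prior and 3 to 1250 with an array left out. Leaving out arrays other than young SNI and sham was chosen after seeing the data. Fewer arrays and fewer Affy_IDs tested are part of some of these settings, and otherwise the cause was not tested.

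Whether array numbers pair the samples could not be decided. Deviations from the group means correlated at 0.112 and 0.020 between same-numbered SNI and sham arrays. With 2 SNI arrays these deviations mirror each other, so every correlation recurs with the opposite sign. With the array number as a replicate block, 2 Affy_IDs were higher in young SNI, 1 of them (Bcl11a) among the 5, and 0 were lower, while 8 were larger and 3 smaller in adults. Of 118 recomputed values of the 5 called genes, 75 kept their call and 43 lost it, and of 416 values of the age genes 278 kept it and 138 lost it. None of these gene values changed direction.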
